A study of Rattus norvegicus with 8 samples.

Results

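Cytochrome P450 enzymes of families 1 to 4 are the haem-containing monooxygenases with which the liver oxidises drugs, toxicants, steroids and fatty acids. Here they are the genes whose only symbol in the array's annotation starts with Cyp1, Cyp2, Cyp3 or Cyp4 followed by a subfamily letter and a number, and 51 of the 14511 named genes met this rule, each with 1 probe set. By family, 3 belonged to family 1, 31 to family 2, 5 to family 3 and 12 to family 4. Transcripts were profiled with Affymetrix whole-transcript arrays in livers of male Wistar rats aged 6 to 10 weeks that had been perfused with Krebs-Henseleit buffer, a salt solution kept at constant pH by bicarbonate. In 4 samples the buffer was hypoosmotic (225 mosm/L), which makes hepatocytes take up water and swell, and in 4 it was normoosmotic (305 mosm/L); the time point was 180 min throughout. An isolated perfused liver keeps its cell types and architecture but is cut off from blood, hormones and nerves. The labels leave unsaid whether each sample is its own animal, so p-values reflect a spread between samples that may be technical, and 4 arrays per group limit the precision. Across genes the arrays correlated at 0.980 to 0.992, but hypoosmotic replicate 3 and normoosmotic replicate 3 each stood apart from their group for several P450 genes, and the changes they moved most are given with and without them. The question was which P450 genes differ in expression once the buffer is made dilute.

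Most P450 enzymes sit in the membrane of the endoplasmic reticulum and receive electrons from the reductase encoded by Por, at times with help from cytochrome b5. Their genes are controlled by ligand-activated receptors: the aryl hydrocarbon receptor for family 1, the constitutive androstane receptor for Cyp2b, the pregnane X receptor for Cyp3a and PPAR-alpha for Cyp4a. In rats several Cyp2c, Cyp2a and Cyp3a genes also depend on sex, because the male and female patterns of growth hormone secretion set them. Values below are deposited log2 expression levels, changes are hypoosmotic minus normoosmotic means on that scale, and a gene was called higher or lower where limma's test, adjusted by Benjamini-Hochberg over all 14511 genes, gave a p under 0.05. Levels of different probe sets were set against each other only to choose and name genes and to judge which were dim or near background. Closely related P450 genes share sequence, so their probes can share signal.

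Of the 51 P450 genes 1, Cyp3a62, was called higher in hypoosmotic livers and 0 were called lower, while 50 were not called. That is 1.96% of the P450 genes, against 7.07% of all genes called in either direction, 2.45% called higher and 4.62% called lower. Before adjustment, 11 P450 genes had a p under 0.05 (limma), of which 10 had positive changes and 1 a negative one. These were 21.6% of the P450 genes, against 20.7% of all genes. The 4 hypoosmotic values all lay above the 4 normoosmotic ones for 2 P450 genes, Cyp3a62 and Cyp4b1, or 3.92%, against 5.33% of all genes. The reverse separation was found for 0 P450 genes, against 8.21% of all genes.

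The uncalled changes were mostly positive and small. The change was above 0 for 42 of the 51 P450 genes (82.4%), against 53.3% of all genes, with a median of 0.15 for the P450 genes and 0.02 for all genes. Without normoosmotic replicate 3 the median was 0.07 and 30 changes were positive, and after centring arrays on their medians 35 were positive. Changes of at least 0.5 in either direction were held by 9 P450 genes (17.6%), against 8.75% of all genes. The median SD within groups was 0.23 over the P450 genes, against 0.18 over all genes, and in the median P450 gene the 95% interval reached 0.33 to either side of the change.

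**Figure D1:**
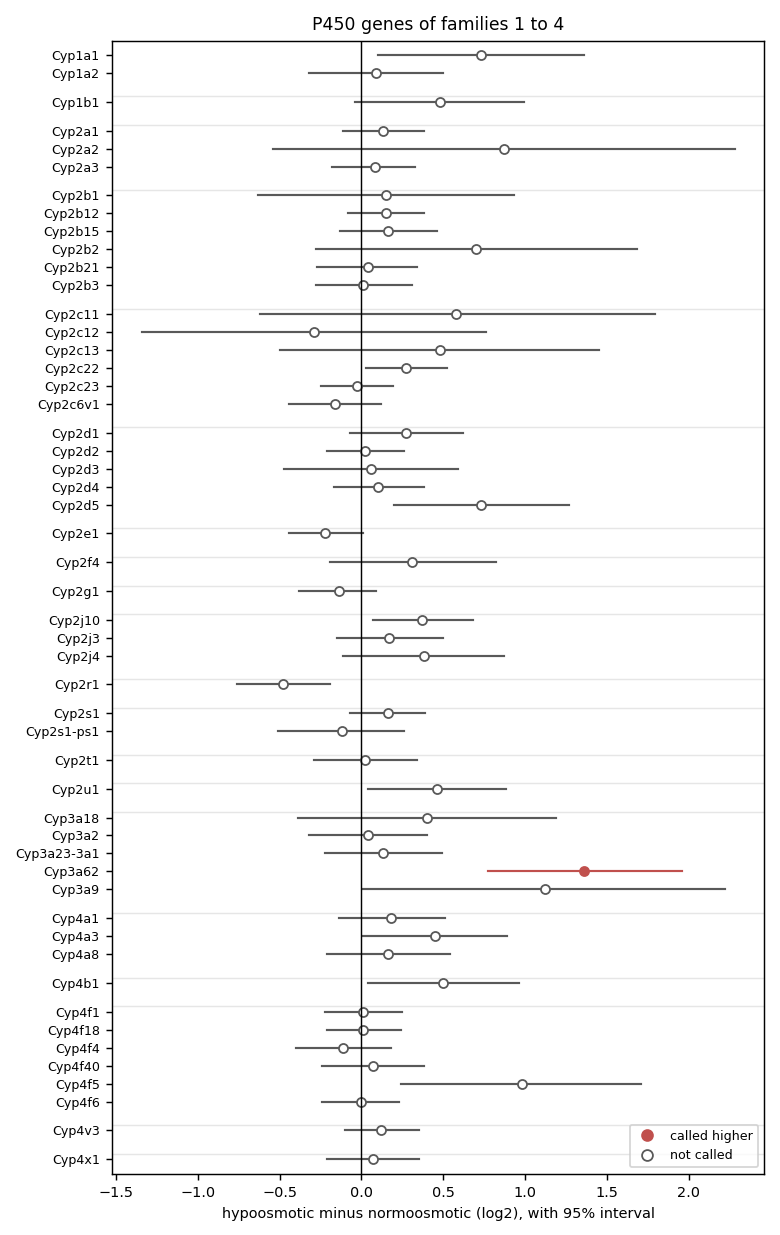
Change in log2 expression (hypoosmotic minus normoosmotic, points) with its 95% interval (lines) for each of the 51 P450 genes, ordered by subfamily; n = 4 arrays per group. Cyp3a62, the filled point at 1.36, was the only gene called, and most open points lie to the right of 0.

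The near-background level, 3.37, was the 95th percentile of the mean log2 level of 53 odorant receptor genes, and 41 P450 genes lay above it in at least 1 group. The other 10 were Cyp2a3, Cyp2b12, Cyp2b21, Cyp2g1, Cyp2s1, Cyp2s1-ps1, Cyp4a8, Cyp4f18, Cyp4f40 and Cyp4x1. Several of these are known mainly from other tissues, such as Cyp2g1 from olfactory mucosa and Cyp4x1 from brain. Their changes lay between -0.14 and 0.16 and 0 had an unadjusted p under 0.05 (limma). Over 1105 odorant receptor genes with either kind of symbol the level was 3.07, and 44 P450 genes lay above it.

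Family 3 held the only call. Its 5 measured genes, all of subfamily Cyp3a, encode enzymes that hydroxylate steroids and many drugs, and all 5 had changes above 0, with a median of 0.40. Without normoosmotic replicate 3, Cyp3a2 had a change of -0.10, the other 4 stayed above 0 and the median was 0.05. Cyp3a62, a form known in rats from the intestine as well as the liver, had log2 levels of 5.17, 5.49, 3.97 and 4.85 in hypoosmotic livers, against 3.21, 3.79, 3.48 and 3.55 in normoosmotic livers. Every hypoosmotic value was above every normoosmotic one, with replicate 3 the lowest of its group. The means were 4.87 ± 0.65 in hypoosmotic and 3.51 ± 0.24 in normoosmotic livers (SD, n = 4 each), a change of 1.36 (SE 0.27, 95% interval 0.77 to 1.96), or 2.57-fold, with an adjusted p of 0.0143 (limma). The normoosmotic mean lay close to the near-background level, so the fold is not exact. Cyp3a62 passed in each of 8 leave-one-out fits (adjusted p 0.00257 to 0.0441), but not against a minimum fold change of 1.2 (0.0849).

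Cyp3a9, a form that in rats is more abundant in female than in male liver, had 3.91, 4.39, 2.96 and 5.80 in hypoosmotic livers, against 3.59, 3.23, 2.22 and 3.56 in normoosmotic livers. The groups overlapped through hypoosmotic replicate 3, and replicate 3 was the lowest array in both groups. Its change was 1.12 (SE 0.50, 95% interval 0.01 to 2.22, adjusted p = 0.237, limma), and its normoosmotic mean, 3.15, lay below the near-background level. The change ran from 0.60 without hypoosmotic replicate 4 to 1.55 without hypoosmotic replicate 3, and was 0.80 without normoosmotic replicate 3. With the replicate number as a term in the fit the adjusted p was 0.0445, although the numbers were not shown to pair the arrays.

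The other 3 Cyp3a genes, which carry the major forms of male rat liver, were not called. Cyp3a23-3a1, the dexamethasone-inducible form, had 11.01, 10.90, 10.88 and 10.79 in hypoosmotic livers, against 11.28, 10.54, 10.51 and 10.71 in normoosmotic livers, a change of 0.13 (95% interval -0.22 to 0.49). Cyp3a2, a male-predominant form, had 11.65, 11.64, 11.71 and 11.56 in hypoosmotic livers, against 12.08, 11.51, 11.18 and 11.64 in normoosmotic livers, a change of 0.04 (-0.32 to 0.40). For both the hypoosmotic arrays lay inside the normoosmotic range. Cyp3a18, also male-predominant, averaged 10.42 ± 0.42 in hypoosmotic and 10.02 ± 0.85 in normoosmotic livers (SD, n = 4 each), a change of 0.40 (-0.39 to 1.19). That change was 0.04 (adjusted p = 0.974, limma) without normoosmotic replicate 3, on which Cyp3a18 was lowest. Without both replicate-3 arrays, a setting chosen after the data were seen, it was 0.21. The intervals allow changes of these genes in either direction, and whether they differ from that of Cyp3a62 was not tested.

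**Figure D2:**
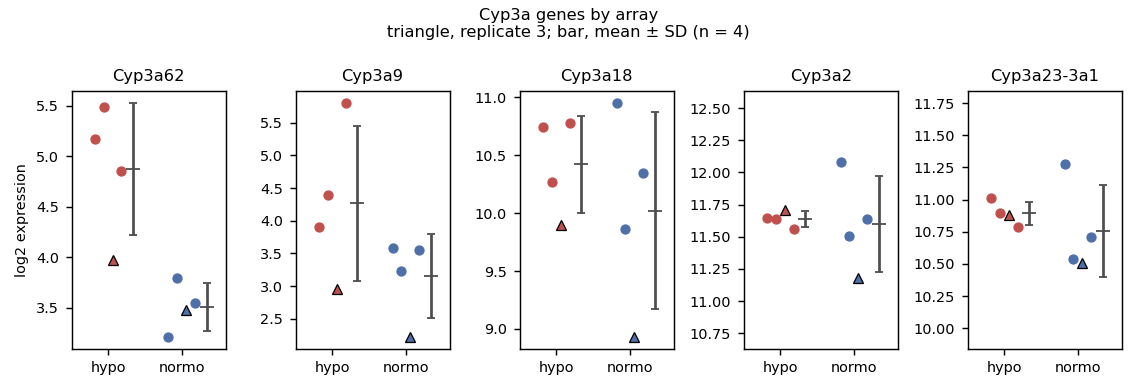
Log2 expression of the 5 Cyp3a genes on each array (points; triangles are replicate 3) with the mean ± SD (bars, n = 4) for hypoosmotic (red, left) and normoosmotic (blue, right) livers; each panel has its own scale. All 4 hypoosmotic points lie above the normoosmotic ones for Cyp3a62, from 3.97 against at most 3.79, and the groups overlap in the other panels.

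In the RefSeq gene order of assembly GRCr8, all 5 Cyp3a genes lie on chromosome 12. Cyp3a18, Cyp3a2 and Cyp3a23-3a1 form one cluster, with 4 protein-coding genes between Cyp3a18 and Cyp3a2 and 0 between Cyp3a2 and Cyp3a23-3a1. Cyp3a62 and Cyp3a9 lie apart from them, with 110 protein-coding genes between Cyp3a23-3a1 and Cyp3a62, and with 3 between Cyp3a62 and Cyp3a9.

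The promoters of 4 Cyp3a genes are shown because Cyp3a genes are known targets of the pregnane X receptor and these 4 span the range of changes in the subfamily. Each is the 250 bases before the RefSeq start in assembly GRCr8, with capitals marking AGGTCA or AGTTCA (core letters of nuclear receptor sites), TATAAA (the TATA box) or TGGAAA (a core shared by NFAT sites), on either strand. The windows are chr12:21511513-21511762 on the plus strand for Cyp3a62, chr12:21960161-21960410 on the minus strand for Cyp3a9, chr12:14398804-14399053 on the minus strand for Cyp3a23-3a1 and chr12:14343858-14344107 on the minus strand for Cyp3a2.
Cyp3a62: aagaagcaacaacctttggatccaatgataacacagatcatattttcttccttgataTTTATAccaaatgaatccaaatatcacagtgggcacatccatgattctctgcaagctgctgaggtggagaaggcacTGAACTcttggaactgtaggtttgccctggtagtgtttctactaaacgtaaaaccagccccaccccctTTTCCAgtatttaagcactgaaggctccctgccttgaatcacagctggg
Cyp3a9: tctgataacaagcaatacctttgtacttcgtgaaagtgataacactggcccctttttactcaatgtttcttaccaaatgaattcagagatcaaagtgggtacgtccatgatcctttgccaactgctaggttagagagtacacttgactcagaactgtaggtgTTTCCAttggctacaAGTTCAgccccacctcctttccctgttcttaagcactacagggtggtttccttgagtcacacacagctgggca
Cyp3a23-3a1: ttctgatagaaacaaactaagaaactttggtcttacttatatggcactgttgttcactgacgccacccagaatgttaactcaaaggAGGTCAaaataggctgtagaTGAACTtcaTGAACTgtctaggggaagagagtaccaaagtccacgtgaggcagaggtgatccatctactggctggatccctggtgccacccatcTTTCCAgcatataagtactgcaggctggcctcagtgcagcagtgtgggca
Cyp3a2: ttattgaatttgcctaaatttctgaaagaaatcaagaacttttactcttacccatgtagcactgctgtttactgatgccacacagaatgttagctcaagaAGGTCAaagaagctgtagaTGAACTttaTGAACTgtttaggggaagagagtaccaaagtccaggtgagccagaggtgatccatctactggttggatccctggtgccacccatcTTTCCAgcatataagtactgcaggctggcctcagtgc

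In the windows of Cyp3a23-3a1 and Cyp3a2 the letters AGTTCA occur 2 times on the opposite strand with 3 bases between the copies, an arrangement known as a binding element of the pregnane X receptor. Searched on both strands as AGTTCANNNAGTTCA after the windows had been seen, it was found in 2 of 33469 RefSeq windows of this length (0.00598%), those of these 2 genes. The arrangement was taken from these windows, so these 2 hits were fixed beforehand, and only exact matches were counted. Cyp3a62 and Cyp3a9 each hold a single exact AGTTCA, which starts 117 bases before the start on the opposite strand in Cyp3a62 and 73 bases before it on the same strand in Cyp3a9. In Cyp3a62, TGAACT is followed after 3 bases by ggaact, a near copy that the exact search did not count. The window is therefore not shown to lack such an arrangement. These letters say nothing of what binds there, and elements outside the window were not searched.

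Over the 46 windows of 44 P450 genes, AGGTCA was present in 32.6%, against 14.1% of all windows, and AGTTCA in 23.9% against 12.2%. TATAAA was present in 28.3% of the P450 windows against 12.9% of all. TTATGTAA, the D-box, was in 4.35%, which is only 2 windows, against 0.828%. GCGTG, the core of the xenobiotic response element, was in 26.1% against 25.9%, and TGGAAA in 19.6% against 19.7%. ATTGCNNAA, a C/EBP-like motif, was in 2.17%, which is 1 window, against 2.04%. Genes of a subfamily descend from recent duplications, so their windows are not independent.

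The genes induced by aryl hydrocarbons had no call. Cyp1a1, which oxidises polycyclic hydrocarbons, had 4.36, 5.06, 3.52 and 5.05 in hypoosmotic livers, against 3.54, 3.92, 3.77 and 3.84 in normoosmotic livers. On 3 of the hypoosmotic arrays it was above every normoosmotic array, and on replicate 3 it was below all of them. The change was 0.73 (95% interval 0.10 to 1.36, adjusted p = 0.170, limma). Without hypoosmotic replicate 3 it was 1.06 with an adjusted p of 0.0104, and without both replicate-3 arrays, a setting chosen after the data were seen, also 1.06 (0.0296). Cyp1a2, the hepatocyte form that metabolises caffeine, had a change of 0.09 (-0.32 to 0.50), with 10.28 to 10.70 in hypoosmotic and 9.93 to 10.92 in normoosmotic livers. Cyp1b1, which is known from stellate cells and other non-hepatocytes, had a change of 0.48 (-0.04 to 0.99, adjusted p = 0.284).

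Among the genes induced through the constitutive androstane receptor, the phenobarbital-inducible pair Cyp2b1 and Cyp2b2 varied widely within both groups. Cyp2b2 had 6.25, 7.97, 6.26 and 7.76 in hypoosmotic livers, against 7.25, 6.20, 6.53 and 5.46 in normoosmotic livers, a change of 0.70 (-0.28 to 1.68, adjusted p = 0.442, limma). Hypoosmotic replicates 2 and 4 were above all normoosmotic arrays, and replicates 1 and 3 were inside the normoosmotic range. Cyp2b1 averaged 4.41 ± 0.63 in hypoosmotic and 4.26 ± 0.70 in normoosmotic livers (SD, n = 4 each). Cyp2b3, a constitutive form that phenobarbital does not induce, had tight groups, 10.11 ± 0.22 in hypoosmotic and 10.09 ± 0.16 in normoosmotic livers, and a change of 0.01 (-0.28 to 0.31). Cyp2b15 had a change of 0.16 (-0.13 to 0.46). Cyp2c6v1, another phenobarbital-responsive form, had a change of -0.16 (-0.44 to 0.12).

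Of the genes controlled through PPAR-alpha, 0 of the 3 Cyp4a genes was called. Cyp4a3, a fatty acid omega-hydroxylase, had 11.0, 10.79, 10.07 and 10.39 in hypoosmotic livers, against 10.15, 9.79, 10.08 and 10.43 in normoosmotic livers, a change of 0.45 (0.01 to 0.89, adjusted p = 0.229, limma). Only hypoosmotic replicates 1 and 2 were above every normoosmotic array. Cyp4a1, which hydroxylates lauric acid, averaged 9.44 ± 0.31 in hypoosmotic and 9.25 ± 0.11 in normoosmotic livers (SD, n = 4 each), a change of 0.18 (-0.14 to 0.51).

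**Figure D3:**
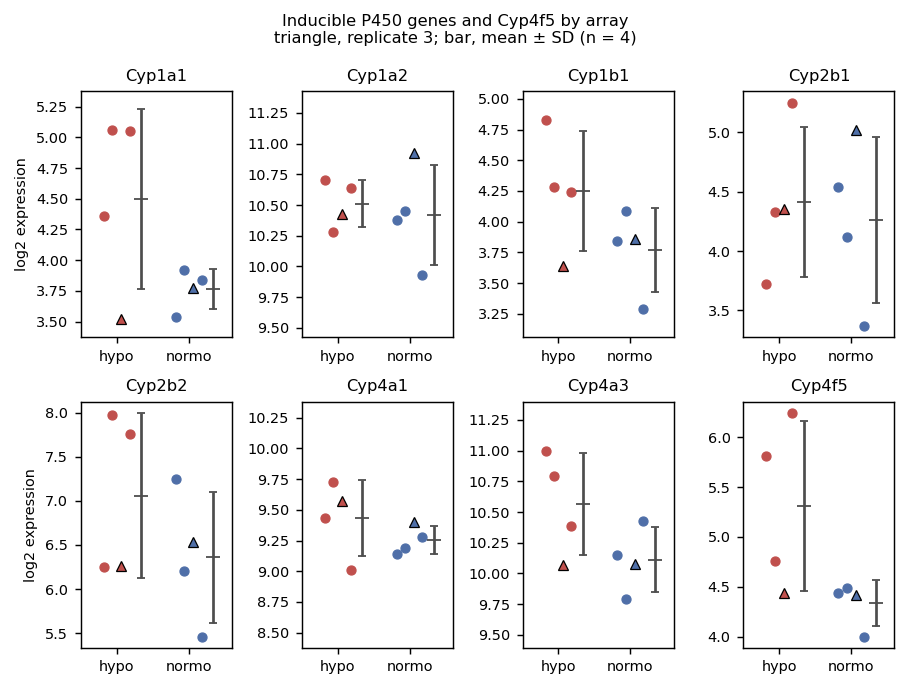
Log2 expression of 7 inducible P450 genes and Cyp4f5 on each array (points; triangles are replicate 3) with the mean ± SD (bars, n = 4) for hypoosmotic (red, left) and normoosmotic (blue, right) livers; each panel has its own scale. For Cyp1a1 and Cyp4f5 the hypoosmotic points spread above the normoosmotic ones except replicate 3, at 3.52 and 4.44.

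The other family 4 genes oxidise fatty acids and eicosanoids. Cyp4f5, one of the leukotriene B4 hydroxylases, had 5.81, 4.76, 4.44 and 6.24 in hypoosmotic livers, against 4.44, 4.49, 4.42 and 4.0 in normoosmotic livers. Of the hypoosmotic arrays 3 were above every normoosmotic array, and replicate 3 was not. The change was 0.98 (0.24 to 1.71, adjusted p = 0.115, limma). The adjusted p was 0.0309 without hypoosmotic replicate 3, with a change of 1.27, and 0.0483 with arrays weighted by quality. The related Cyp4f1, Cyp4f4 and Cyp4f6 had changes of 0.01, -0.11 and 0.00, each with an interval that covered 0. Cyp4b1, known from rodent lung, had 4.28, 4.48, 5.37 and 4.35 in hypoosmotic livers, against 4.20, 4.0, 4.20 and 4.08 in normoosmotic livers. Its groups did not overlap, hypoosmotic replicate 3 was the highest array, and the change of 0.50 (0.04 to 0.96) was not called (adjusted p = 0.195, limma). Without that array the change of Cyp4b1 was 0.25. Cyp4v3, the rodent counterpart of the human fatty acid hydroxylase CYP4V2, had a change of 0.12 (-0.10 to 0.35).

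For several sex-dependent genes, normoosmotic replicate 3 stood apart from the other arrays. Cyp2c11, the main male-specific form of rat liver, had 10.46, 10.70, 9.88 and 10.97 in hypoosmotic livers, against 10.93, 10.38, 7.86 and 10.50 in normoosmotic livers. Cyp2c13, also male-specific, had 11.46, 11.45, 11.45 and 11.56 in hypoosmotic livers, against 11.92, 11.31, 9.27 and 11.51 in normoosmotic livers. Cyp2a2, a male-specific testosterone hydroxylase, had 9.96, 10.56, 9.0 and 10.14 in hypoosmotic livers, against 9.93, 9.42, 6.69 and 10.13 in normoosmotic livers. All 3 were lowest on normoosmotic replicate 3, and Cyp2c11 and Cyp2a2 were also lowest within the hypoosmotic group on its replicate 3. Cyp2c12, the female-specific form, had 10.55, 10.11, 10.41 and 8.74 in hypoosmotic livers, against 10.50, 10.18, 11.32 and 8.97 in normoosmotic livers, so it was highest on normoosmotic replicate 3 and lowest on replicate 4 of both groups. Not every female-predominant gene was high there: Cyp3a9 was lowest on that array within its group, at 2.22, which is below the near-background level. Cyp2a1 was highest there within its group, but only just, at 10.07 against 9.72 to 10.06 on the other normoosmotic arrays. The labels give all 8 livers as male.

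On normoosmotic replicate 3, 5 P450 genes lay more than 1 away from their group mean, against 0.227% of all genes on that array. The male-predominant Cyp3a18 and Cyp3a2 were also lowest there within their group, at 8.93 and 11.18. Beyond the P450 families, 2 genes that are male-predominant in rat liver did the same. Hsd3b5, a steroid dehydrogenase gene chosen after its values were seen, was at 3.09 there and at 6.38 to 7.78 on the other normoosmotic arrays. The oestrogen sulfotransferase gene Sult1e1, not picked by the naming rule, was at 5.06 there and at 7.61 to 8.75 on the others. Both were also lowest within the hypoosmotic group on its replicate 3. Hsd3b5 was at 6.59 there, against 8.40 to 8.68, and Sult1e1 at 8.63, against 8.99 to 9.87.

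None of these genes was called. The main changes were 0.58 for Cyp2c11, 0.48 for Cyp2c13, 0.87 for Cyp2a2 and -0.29 for Cyp2c12 (adjusted p 0.522 to 0.817, limma). Without normoosmotic replicate 3 they were -0.10, -0.10, 0.09 and 0.07, so 3 of the 4 took the other sign. Without both replicate-3 arrays, a setting chosen after the data were seen, they were 0.11, -0.09, 0.39 and -0.08. In that setting only Cyp2c13 took the other sign. The median over the 6 Cyp2c genes was 0.12 with all arrays and -0.09 in either of these settings. The part of normoosmotic replicate 3 in other P450 changes was not tested beyond leaving it out.

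**Figure D4:**
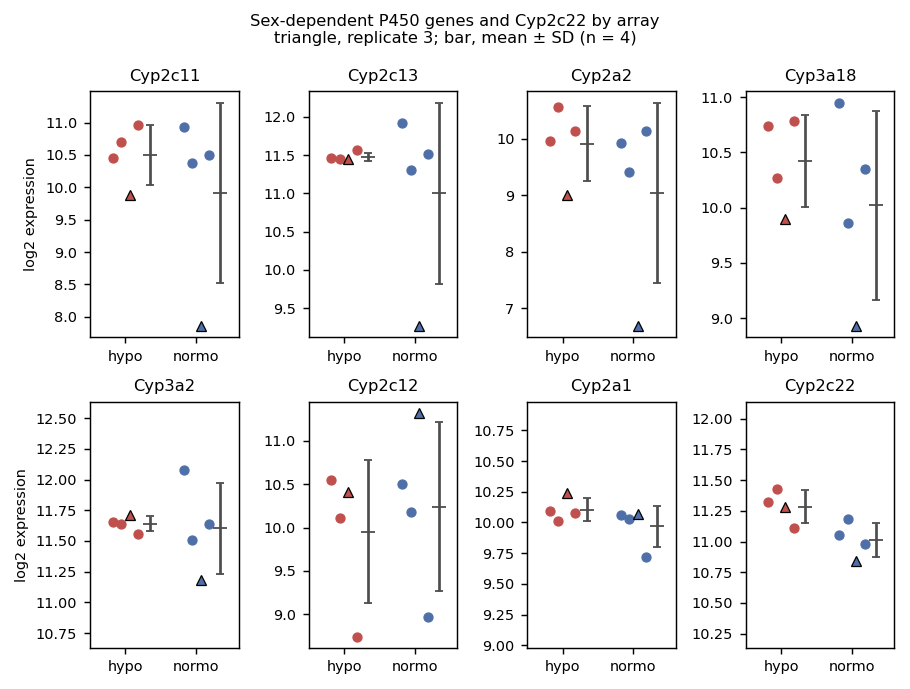
Log2 expression of 7 sex-dependent P450 genes and Cyp2c22 on each array (points; triangles are replicate 3) with the mean ± SD (bars, n = 4) for hypoosmotic (red, left) and normoosmotic (blue, right) livers; each panel has its own scale. The normoosmotic triangle is far below the other points for Cyp2c11 (7.86), Cyp2c13 (9.27) and Cyp2a2 (6.69) and above them for Cyp2c12 (11.32).

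The promoters of Cyp2c11 and Cyp2c13 are shown because these genes were lowest on the same array. The windows, with capitals as above, are chr1:246174966-246175215 on the plus strand and chr1:248787189-248787438 on the minus strand of GRCr8 (RefSeq).
Cyp2c11: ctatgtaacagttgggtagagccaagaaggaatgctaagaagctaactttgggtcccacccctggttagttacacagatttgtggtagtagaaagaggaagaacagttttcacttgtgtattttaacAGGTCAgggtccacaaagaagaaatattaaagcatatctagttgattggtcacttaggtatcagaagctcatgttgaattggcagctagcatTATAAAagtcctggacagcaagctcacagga
Cyp2c13: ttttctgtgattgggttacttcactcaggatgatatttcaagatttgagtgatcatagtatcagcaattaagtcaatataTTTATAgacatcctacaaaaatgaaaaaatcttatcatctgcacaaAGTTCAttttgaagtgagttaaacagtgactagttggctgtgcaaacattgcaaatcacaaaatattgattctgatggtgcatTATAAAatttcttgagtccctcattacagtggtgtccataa
Both hold TATAAA close to the start, beginning 31 bases before it in Cyp2c11 and 41 in Cyp2c13. Cyp2c11 holds AGGTCA and Cyp2c13 holds AGTTCA, so these letters differ between the windows.

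The remaining Cyp2c and Cyp2a genes were steadier. Cyp2c23, an epoxygenase of arachidonic acid, averaged 11.52 ± 0.05 in hypoosmotic and 11.55 ± 0.12 in normoosmotic livers (SD, n = 4 each), and its change of -0.03 had an interval of -0.25 to 0.19. Cyp2c22, which metabolises retinoic acid, had 11.32, 11.43, 11.28 and 11.11 in hypoosmotic livers, against 11.05, 11.18, 10.84 and 10.98 in normoosmotic livers. Only hypoosmotic replicate 4 fell inside the normoosmotic range, and the change of 0.27 (0.03 to 0.52) was not called (adjusted p = 0.187, limma). Cyp2a1, a female-predominant form, had a change of 0.13 (-0.11 to 0.38).

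Of the 5 Cyp2d genes, which encode the rat counterparts of the human debrisoquine hydroxylase, 0 were called. Cyp2d5 had 8.71, 9.40, 9.65 and 9.08 in hypoosmotic livers, against 8.40, 8.15, 8.20 and 9.16 in normoosmotic livers. The groups overlapped through normoosmotic replicate 4, and the change was 0.73 (0.20 to 1.27, adjusted p = 0.102, limma). Without that array Cyp2d5 passed, with a change of 0.96 (adjusted p = 0.0337). Cyp2d1, Cyp2d2, Cyp2d3 and Cyp2d4 had changes of 0.27, 0.02, 0.06 and 0.10, each with an interval that covered 0.

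The lowest change was that of Cyp2r1, the microsomal vitamin D 25-hydroxylase. It had 5.59, 5.82, 5.63 and 5.99 in hypoosmotic livers, against 6.38, 6.19, 6.39 and 5.97 in normoosmotic livers, and the groups overlapped only at replicate 4. Its change of -0.48 (-0.76 to -0.19) had an adjusted p of 0.0538 (limma), just above the threshold. Cyp2r1 passed with arrays centred on their medians (0.0499), with arrays weighted by quality (0.0360), without the dimmest 30% of genes (0.0450), without hypoosmotic replicate 4 (0.0356) and without normoosmotic replicate 4 (0.0441). It did not pass with the replicate block (0.104) or in the other 6 leave-one-out fits, with 0.152 without normoosmotic replicate 3 the highest. Cyp2e1, the ethanol-inducible form of pericentral hepatocytes, had 11.58, 11.70, 11.86 and 11.64 in hypoosmotic livers, against 11.94, 11.77, 11.96 and 11.97 in normoosmotic livers. Only hypoosmotic replicate 3 was above a normoosmotic array, and the change of -0.22 (-0.44 to 0.01) was not called (adjusted p = 0.269, limma).

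The 3 Cyp2j genes, a subfamily that includes epoxygenases of arachidonic acid, had changes of 0.37 for Cyp2j10, 0.17 for Cyp2j3 and 0.38 for Cyp2j4, with 0 calls. Cyp2j10 had 4.67, 4.67, 4.11 and 4.51 in hypoosmotic livers, against 4.19, 4.24, 3.96 and 4.07 in normoosmotic livers. Its adjusted p was 0.139 with all arrays and 0.0283 without hypoosmotic replicate 3 (limma), which was the only hypoosmotic array inside the normoosmotic range. Cyp2u1, which hydroxylates long-chain fatty acids, had a change of 0.46 (0.04 to 0.88, adjusted p = 0.198), and Cyp2f4, known from lung, one of 0.31 (-0.19 to 0.82). Both were highest on hypoosmotic replicate 3, at 5.78 and 7.11, and without it their changes were 0.24 and 0.04. Cyp2t1 had a change of 0.02 (-0.29 to 0.34).

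Of 34 measured regulators of P450 genes, 4 were called higher and 0 lower, against 2.45% and 4.62% of all genes, with a median change of 0.15. Before adjustment 15 had a p under 0.05 (44.1%, 11 positive and 4 negative; limma), against 20.7% of all genes. Nr1i2, the pregnane X receptor that controls Cyp3a genes, had 7.15, 7.49, 7.88 and 7.66 in hypoosmotic livers, against 6.78, 6.80, 7.11 and 6.35 in normoosmotic livers. All hypoosmotic values were above all normoosmotic ones, and the change was 0.78 (0.38 to 1.19, adjusted p = 0.0278). In leave-one-out fits Nr1i2 passed 2 times of 8 (0.0219 to 0.0701; the highest was without normoosmotic replicate 4). Foxa2, a pioneer factor of liver genes, averaged 6.11 ± 0.15 in hypoosmotic and 4.99 ± 0.35 in normoosmotic livers (SD, n = 4 each), a change of 1.12 (adjusted p = 0.005). Ppargc1a, a coactivator of fasting that also acts on P450 and haem genes, rose by 1.16 (0.67 to 1.66, adjusted p = 0.0132). Nr5a2, an orphan receptor of bile acid and P450 genes, rose by 0.60 (0.36 to 0.84, adjusted p = 0.0108). These 3 passed in each of the 8 leave-one-out fits.

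The receptors of the other inducible groups were not called. Ahr, the aryl hydrocarbon receptor, had a change of -0.16 (-0.59 to 0.26), and its partner Arnt one of 0.35 (0.11 to 0.60, adjusted p = 0.0873, limma), which passed after a further quantile normalization (0.0467). Nr1i3, the constitutive androstane receptor, had 2.96, 3.65, 4.14 and 3.03 in hypoosmotic livers, against 3.08, 3.13, 3.29 and 2.92 in normoosmotic livers, and its normoosmotic values were all near background. Ppara had a change of 0.76 (0.25 to 1.27, adjusted p = 0.0780) and Rxra, the shared partner of these nuclear receptors, one of 0.27 (0.02 to 0.52, adjusted p = 0.20). Hnf4a, which sustains many liver P450 genes, had a change of 0.48 (0.09 to 0.87, adjusted p = 0.146), and Cebpa one of -0.16 (-0.53 to 0.21). Nr0b2, a corepressor induced by bile acids, was at 5.84 on hypoosmotic replicate 3 and at 2.78 to 3.42 on the other 7 arrays.

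Some clock-related regulators varied strongly within the groups. Dbp, a D-box factor that drives several P450 genes, had 5.92, 6.42, 8.32 and 7.97 in hypoosmotic livers, against 9.11, 6.38, 8.89 and 5.26 in normoosmotic livers. The clock gene Bmal1, chosen after its values were seen, had 6.81, 7.0, 6.45 and 6.39 in hypoosmotic livers, against 3.96, 7.05, 4.23 and 6.99 in normoosmotic livers. Within the normoosmotic group replicates 1 and 3 were thus high for Dbp and low for Bmal1, and the hour of sampling was not given. Por, the reductase that supplies P450 enzymes with electrons, had 7.55, 7.80, 8.12 and 8.61 in hypoosmotic livers, against 8.46, 7.69, 8.71 and 7.38 in normoosmotic livers, and was also higher on normoosmotic replicates 1 and 3 than on 2 and 4. Its change was -0.04 (-0.70 to 0.62). Other clock-related genes of the list were steadier in 1 group: Tef had an SD of 0.06 in hypoosmotic livers and 0.38 in normoosmotic livers, and Nr1d1 one of 1.01 in hypoosmotic and 0.22 in normoosmotic livers. In the group where each varied more, its order resembled that of Dbp. Tef had 5.46, 4.72, 5.33 and 4.78 in normoosmotic livers, again higher on replicates 1 and 3. Nr1d1 had 6.58, 7.23, 8.33 and 8.79 in hypoosmotic livers, higher on replicates 3 and 4, as was Dbp. The part of the clock in the P450 changes was not tested.

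Of 10 measured electron transfer and membrane partners 2 were called higher and 0 lower, against 2.45% and 4.62% of all genes, with a median change of 0.37. Cyb5r3, a cytochrome b5 reductase, averaged 10.32 ± 0.22 in hypoosmotic and 9.65 ± 0.36 in normoosmotic livers (SD, n = 4 each), a change of 0.66 (adjusted p = 0.0466, limma). In leave-one-out fits Cyb5r3 passed 3 times of 8 (0.0393 to 0.133; the highest was without normoosmotic replicate 3). Cyb5r1, of the same family, averaged 5.42 ± 0.04 in hypoosmotic and 4.94 ± 0.10 in normoosmotic livers, a change of 0.48 (adjusted p = 0.0141), and passed in all 8. Cyb5a, cytochrome b5 itself, had a change of 0.16 (-0.10 to 0.43).

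Of 13 measured genes of haem synthesis and breakdown 0 were called, against 7.07% of all genes. An unadjusted p under 0.05 (limma) was found for 4 of them, or 30.8%, against 20.7% of all genes. All 4 had positive changes, and the list median was 0.23. Alas1, the first and rate-limiting enzyme of haem synthesis, had 5.95, 6.26, 8.18 and 5.92 in hypoosmotic livers, against 5.87, 5.97, 6.11 and 5.62 in normoosmotic livers. Hypoosmotic replicate 3 was alone far above the rest, and the change of 0.68 had an interval of -0.22 to 1.59. Without that array the change of Alas1 was 0.15. Fech, which inserts iron into the ring, had a change of 0.34 (0.03 to 0.66, adjusted p = 0.199). Hmox1, which breaks haem down, had one of -0.04 (-0.47 to 0.40).

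**Figure D5:**
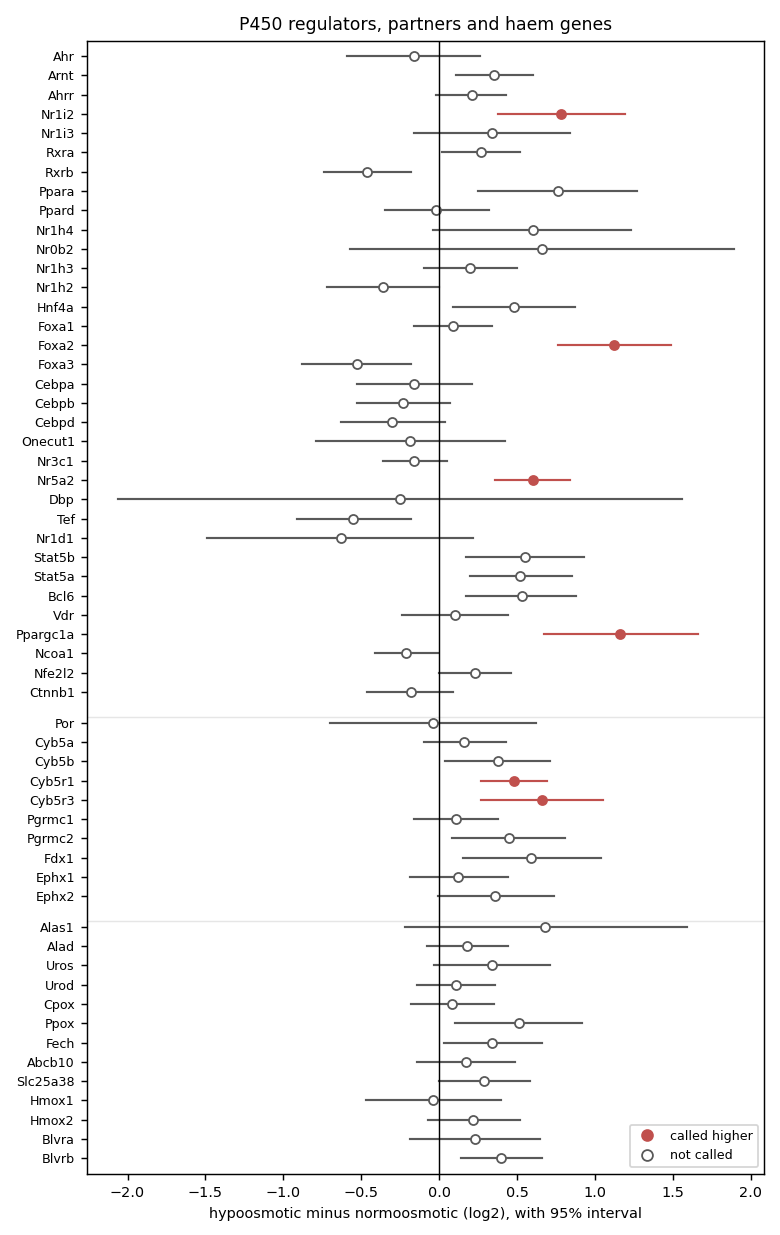
Change in log2 expression (hypoosmotic minus normoosmotic, points) with its 95% interval (lines) for measured regulators (top), electron transfer and membrane partners (middle) and haem genes (bottom); n = 4 arrays per group. The 6 filled points, Nr1i2, Foxa2, Nr5a2, Ppargc1a, Cyb5r1 and Cyb5r3, were called higher, and 0 genes were called lower.

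The other P450 families, which make and break down steroids, bile acids and vitamins, gave 1 call among 18 measured genes, against 7.07% of all genes called. Cyp7b1, an oxysterol hydroxylase of the alternative bile acid pathway, averaged 5.24 ± 0.41 in hypoosmotic and 6.12 ± 0.26 in normoosmotic livers (SD, n = 4 each), a change of -0.88 (-1.31 to -0.44, adjusted p = 0.0242, limma). In leave-one-out fits Cyp7b1 passed 4 times of 8 (0.0241 to 0.0671; the highest was without hypoosmotic replicate 2). Cyp7a1, the rate-limiting enzyme of the classical pathway, spread widely, with 6.81 ± 1.45 in hypoosmotic and 6.33 ± 1.07 in normoosmotic livers. Cyp8b1, Cyp27a1 and Cyp51, of bile acid and cholesterol synthesis, had changes of 0.24, 0.07 and -0.14, each with an interval that covered 0.

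Phase II enzymes, which conjugate the products of P450 enzymes, had 4 genes called higher and 0 lower among 34, against 2.45% and 4.62% of all genes, with a median change of 0.16. An unadjusted p under 0.05 was held by 23.5% of them, against 20.7% of all genes (limma). The 4 called genes were the glutathione transferase genes Gstm4 (0.78, adjusted p = 0.0160, limma), Gstp1 (0.70, 0.0375) and Gsto2 (0.65, 0.0439) and the sulfotransferase gene Sult1b1 (0.71, 0.0272). Across 8 leave-one-out fits, Gstm4 passed 7 times (0.0140 to 0.0546), Sult1b1 4 times (0.0300 to 0.0802) and Gstp1 2 times (0.0166 to 0.105), and for each the highest was without normoosmotic replicate 3. Gsto2 passed once (0.0335 to 0.117; the highest was without normoosmotic replicate 4). Without normoosmotic replicate 3, 0 phase II genes were called, while the calls over all 14511 genes fell from 1026 to 468.

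The tissue label held against marker genes. For the counts below, 7.07% of all genes were called, 2.45% higher and 4.62% lower, so 0 calls in a short list says little. All 10 hepatocyte markers, among them Alb, lay above background on every array, 0 of the 10 were called, and their summed log2 levels ran from 121.4 to 122.3 in hypoosmotic and from 121.7 to 122.3 in normoosmotic livers. Of the pericentral markers, the zone where many P450 genes are most active, 2 of 7 were called higher (Rhbg 0.51 and Tbx3 0.60) and 0 lower, with sums of 41.1 to 42.5 in hypoosmotic and 40.2 to 42.1 in normoosmotic livers. Rhbg passed 3 and Tbx3 1 of 8 leave-one-out fits, and 2 pericentral markers had negative uncalled changes, Slc1a2 -0.58 with groups that did not overlap and Axin2 -0.37 (limma adjusted p = 0.267, but 0.0431 without hypoosmotic replicate 3). Of 8 periportal markers Arg1 was called higher (0.76, passing all 8 leave-one-out fits), with sums of 71.9 to 75.3 in hypoosmotic and 71.0 to 72.6 in normoosmotic livers. Of 5 endothelial markers Kdr was called higher (0.66) and Oit3 lower (-0.46), with sums of 36.6 to 39.0 in hypoosmotic and 36.0 to 37.0 in normoosmotic livers. Kdr passed 2 and Oit3 1 of 8 leave-one-out fits. Of the markers of Kupffer cells, stellate cells and cholangiocytes 0 of 7, 0 of 7 and 0 of 5 were called, and 0 of 4 lymphocyte markers lay above background. In such bulk samples fewer cells of a type and less RNA per cell cannot be told apart, and the part of these markers in the P450 changes was not tested.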

How the data were processed

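The deposited table holds log2 levels of 27596 probe sets on 8 arrays, as made by the authors. RMA, Transcriptome Analysis Console 4.0 and Affymetrix Expression Console were named per the submitters' processing notes, without their roles. RMA is known to equalise the arrays' distributions, so a shift shared by most genes would be removed. Array medians lay between 3.92 and 4.05. Per the labels' protocols, 1 µg of total RNA was labelled in a whole-transcript assay. Scanner files, detection calls and scan batches were not used here, and the array's genome build is not given in the sources used here.

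Probe sets were named from the platform annotation: 15316 had a single symbol, 317 had several, and the other 11963 stayed unnamed here. RefSeq updated the symbols (15284 by gene identifier, 7 by accession, 25 kept, 2 changed). The probe set with the highest mean stood for each of 14511 genes. The lmFit and eBayes functions of limma 3.58.1 (R 4.3.3; group as the only term, two-sided, Benjamini-Hochberg over all genes) gave changes, standard errors and 95% intervals. Tables and plots were made in Python 3.11.15 (pandas 2.3.3, matplotlib 3.10.9), and the fit was tested on simulated data.

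The P450 genes, the other lists and the naming rule were chosen with earlier results of these data known. The rule named genes that were called or whose groups did not overlap, the gene with the highest mean in each subfamily and a fixed set, which came to 45 of the 51 P450 genes. Of the 6 others, Cyp2b12, Cyp2b15, Cyp2b21, Cyp2j10, Cyp4f18 and Cyp4f40, the text names all. Some entries of the lists were not analysed here. Promoter windows came from RefSeq (GRCr8), with 44 P450 genes matched. The alternatives were a further quantile normalization, median centring, a block for the replicate number, array weights, an intensity trend, leaving out the dimmest 30% of genes, averaging or testing all probe sets, a minimum fold change of 1.2, leaving out each array, and, added later, leaving out both replicate-3 arrays.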

Additional observations from a re-analysis of the deposited data

Results flagged for a closer look

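In 7 of 90 groups of 4 arrays looked at for the P450 genes, 1 array lay far from the other 3 relative to the group's range (past Dixon's critical value for 4 samples), and chance alone flags about 1 in 20 groups. Among the hypoosmotic arrays, Cyp2c13 was highest on replicate 4 at 11.56, against 11.45 to 11.46 on the others, and Cyp2c23 was highest on replicate 3 at 11.60, against 11.49 to 11.50, both within a range of 0.11. Among the normoosmotic arrays, Cyp2a3 was lowest on replicate 3 at 2.16, against 2.53 to 2.56, all near background. Cyp2a1 was lowest on replicate 4 at 9.72, against 10.03 to 10.07, and so was Cyp4f5, at 4.0 against 4.42 to 4.49. Cyp2e1 was lowest on replicate 2 at 11.77, against 11.94 to 11.97, and Cyp2t1 was highest on that array at 7.02, against 6.42 to 6.49.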

How the results depend on the processing

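The number of P450 genes called higher was 1, and it was 2 with the replicate block, 2 with array weights, 0 against a minimum fold change of 1.2, 2 without both replicate-3 arrays (chosen after seeing the data), and 1 to 4 with 1 array left out, highest without hypoosmotic replicate 3 (Cyp3a62, Cyp1a1, Cyp4f5 and Cyp2j10). The number called lower was 0, and it was 1, Cyp2r1, with median centring, array weights or the dimmest 30% left out, and 0 to 1 with 1 array left out. Over all genes 1026 were called, against 83 at the minimum fold change, 433 without both replicate-3 arrays and 468 to 1051 with 1 array left out, lowest without normoosmotic replicate 3. Of these, 356 were higher and 670 lower, and 235 and 733 with median centring. The 4 called regulators became 7 after quantile normalization, 1 at the minimum fold change and 3 to 7 with 1 array left out, highest without normoosmotic replicate 2. The 2 called partners became 1 with quantile normalization, median centring or all probe sets, 0 at the minimum fold change and 1 to 2 with 1 array left out. The 0 called haem genes became 1 with quantile normalization or array weights and 0 to 2 with 1 array left out. The 1 call in other P450 families became 0 at the minimum fold change and without both replicate-3 arrays, and 0 to 1 with 1 array left out. The 4 phase II calls became 2 with median centring or all probe sets, 0 at the minimum fold change, 1 without both replicate-3 arrays and 0 to 3 with 1 array left out. The median change of the P450 genes, 0.15, ran from 0.07 to 0.19 with 1 array left out, and no called change of a named gene took the other sign in these alternatives. Uncalled changes took the other sign for 17 named P450 genes, at most 0.58 in size. Same-numbered arrays deviated together with correlations of 0.01 to 0.26, and 6 of 8 arrays correlated best with their own number. This does not show that the numbers pair the arrays. The replicate block called 1029 genes. It lowered the SE of some variable P450 genes, from 0.48 to 0.16 for Cyp2c12 and from 0.64 to 0.34 for Cyp2a2. For others the SE rose, from 0.45 to 0.49 for Cyp2b2 and from 0.36 to 0.39 for Cyp2b1. If the arrays are paired, the main fit can miss changes. A stricter null lowers the counts by construction. Leaving out an array gives the test less data but also alters means and spread, and some counts rose. The cause of these and the other shifts was not tested. Without detection calls, levels near background set the limit for 10 P450 genes.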
